A study of Mus musculus with 6 samples.

Results

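The 10 genes described here are those of steroid hormone production by Leydig cells, the hormone-secreting cells between the testis cords, measured in RNA from whole mouse testes. They were chosen by symbol and taken from the deposited table in the order of the pathway: the receptors Lhcgr and Mc2r, the cholesterol entry genes Scarb1 and Star, and the enzymes Cyp11a1, Hsd3b1, Hsd3b6, Cyp17a1, Hsd17b3 and Cyp11b1. All 10 were found among the 54232 genes of the table, and 9 of them, all but Hsd3b6, passed the filter on low counts that left 20153 genes for testing. There were 6 samples of whole testis, 3 per genotype (Dis3l2 WT and Dis3l2 cKO), all taken at postnatal day 4 from mice whose strain is given as B6D2F1 inbred. The letters cKO usually stand for a conditional knockout. Dis3l2 encodes an exonuclease for RNAs with uridine tails, and the labels name neither the Cre driver nor the deleted exons. The stated purpose was to find genes that differ between the control and cKO testes. Nothing in the labels says that the samples of a group were separate animals, so the spread behind each p-value may be only technical.

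The libraries held 26126694 to 43265614 counts, cKO replicate 1 being the lowest. This library also differed most from its group: the chi-square per gene against the other cKO libraries was 13.3 and 22.1, beside 6.56 between cKO replicates 2 and 3 and 4.21 to 7.12 among the WT libraries. Without it 3375 genes in place of 1681 passed the test (edgeR quasi-likelihood, Benjamini-Hochberg adjusted p under 0.05). Dis3l2 itself had 32.8, 31.0 and 32.1 CPM (counts relative to the TMM-scaled library size) in WT and 30.6, 31.0 and 33.6 CPM in cKO. These whole-gene counts overlap between the groups and do not check the genotype labels, since reads from undeleted exons and from cells with an intact gene are counted too. In whole tissue, fewer cells of a type and less RNA per cell cannot be told apart.

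Leydig cells make androgens from cholesterol. Pituitary luteinizing hormone acts through LHCGR and cyclic AMP to raise the expression of the pathway, STAR moves cholesterol to the inner mitochondrial membrane, CYP11A1 cleaves it to pregnenolone, and HSD3B and CYP17A1 carry the steroid on to androstenedione. In the fetal and newborn mouse testis a first, fetal population of Leydig cells does this, and the last step to testosterone by HSD17B3 is known to take place in Sertoli cells, the supporting cells inside the cords. Adult Leydig cells arise later and are known for Hsd3b6 and their own Hsd17b3.

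The members differed widely in level. On the scale of RPKM (CPM per kilobase of the exon length in the count table) their order was the same in both groups, and it depends in part on that length. Hsd17b3 was the most abundant, with an RPKM of 203 ± 11.6 in WT and 235 ± 14.1 in cKO (means ± SD of 3 libraries). Hsd3b1 followed with an RPKM of 104 ± 0.944 in WT and 100.4 ± 0.801 in cKO, and Cyp17a1 with 38.2 ± 1.76 and 58.1 ± 6.19 (means ± SD of 3 libraries). Star ranked next with an RPKM of 23.1 ± 0.566 in WT and 29.2 ± 1.52 in cKO, ahead of Scarb1 with 16.5 ± 0.723 and 21.8 ± 4.45 and Cyp11a1 with 9.76 ± 0.358 and 10.4 ± 1.81 (means ± SD of 3 libraries). The RPKM of Lhcgr was 4.84 ± 0.142 in WT and 7.87 ± 1.05 in cKO, and that of Cyp11b1 3.19 ± 0.484 and 2.54 ± 0.166 (means ± SD of 3 libraries). Mc2r, with an RPKM of 0.58 ± 0.10 in WT and 0.832 ± 0.368 in cKO (means ± SD of 3 libraries), and Hsd3b6, at most 0.106 in any library, closed the order. Within WT the libraries of neighbours in this order did not overlap. Within cKO the ranges of Cyp11a1 (RPKM 8.43 to 11.9) and Lhcgr (7.14 to 9.07) overlapped across libraries, while Lhcgr lay below Cyp11a1 in each library. Some lengths are uncertain: that of Scarb1 is 8500 bases in the table and 3093 in its longest GENCODE M21 transcript, and that of Lhcgr is 2553 and 6828. Per kilobase of the longest transcript, an alternative chosen after seeing the data, Scarb1 was at 45.3 ± 1.99 in WT and 60.0 ± 12.2 in cKO (means ± SD of 3 libraries) and its mean lay above those of Cyp17a1 and Star. Lhcgr was then at 1.81 ± 0.0533 in WT, below Cyp11b1, and 2.94 ± 0.393 in cKO (means ± SD of 3 libraries), above it. The ranks of Hsd17b3, Hsd3b1, Cyp11a1, Mc2r and Hsd3b6 were the same with both lengths.

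**Figure D1:**
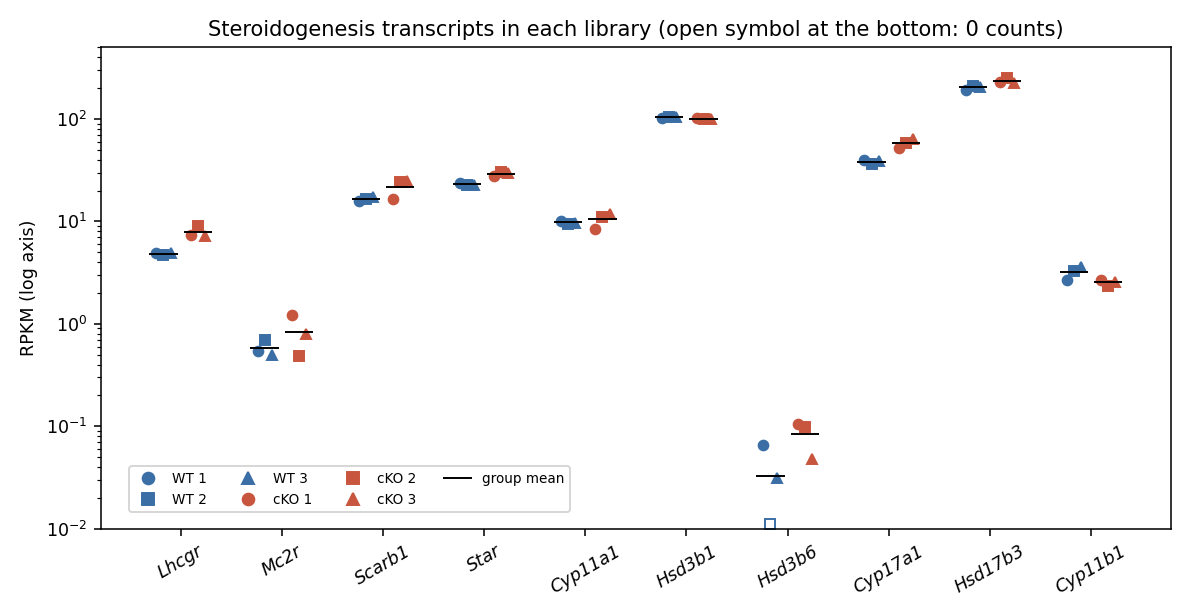
RPKM (log axis) of the 10 genes in the 3 WT (blue) and 3 cKO (red) libraries, with the exon length of the count table, symbols for the replicate and a bar at the group mean. The open square at the bottom is the 1 library with 0 counts of Hsd3b6 (WT replicate 2), and Lhcgr, Star, Cyp17a1 and Hsd17b3 lie higher in every cKO library than in every WT library.

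The 4 members that rose in cKO were a receptor gene, both genes of cholesterol entry and an enzyme gene. Of the 9 members tested, Lhcgr, Scarb1, Star and Cyp17a1 passed the test upward (edgeR quasi-likelihood), 0 passed it downward (0 also in DESeq2 and limma-voom, and 1, Cyp11b1, at an unadjusted p under 0.05) and 5 did not pass, where 3.4% of all tested genes passed it upward and 4.94% downward. An unadjusted p under 0.05, in either direction, was found for 6 of the 9, beside 4699 of the 20153 genes tested. The median log2 fold change of the 9 was 0.34, beside 0.01 over all genes tested. The members, and the gene lists used below, were chosen with earlier results of these data known. A count above the share of all genes is therefore only a description. The cKO libraries lay above all WT libraries for 4 members (Lhcgr, Star, Cyp17a1 and Hsd17b3), as for 13.6% of all tested genes, and below them for 1 (Hsd3b1), as for 14.6%. The count of rises fell to 3 without any of the WT libraries or without cKO replicate 2, and was 6 without cKO replicate 1. Libraries were also scaled to the Sertoli cell markers in place of all genes, which moved the median of all genes by -0.20 on the log2 scale. Then 2 members rose (Lhcgr and Cyp17a1) and 2 fell (Hsd3b1 and Cyp11b1). Of all 20153 genes tested, 220 rose and 4976 fell under this scaling.

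**Figure D2:**
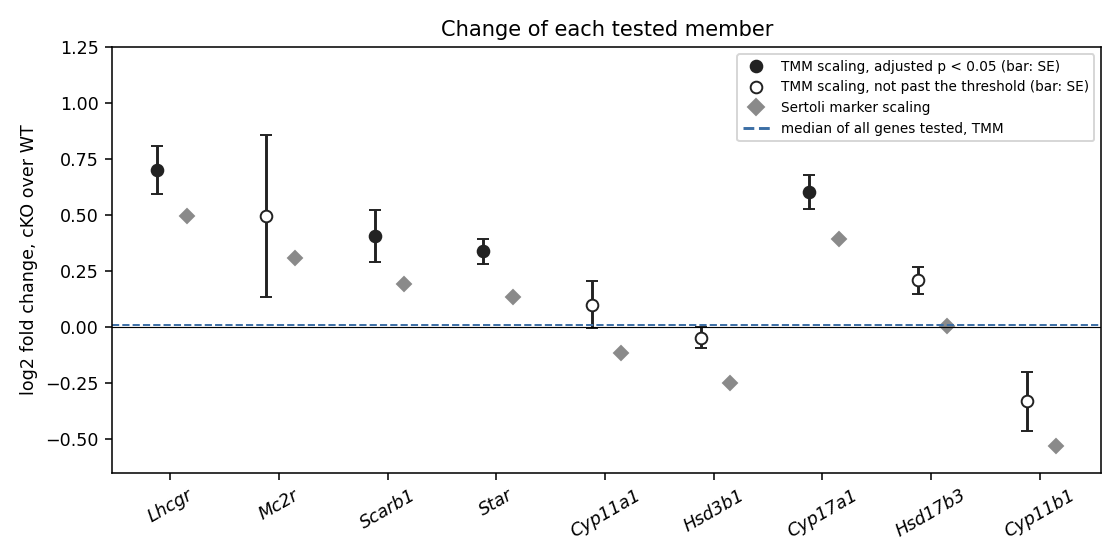
Log2 fold change of cKO over WT for the 9 members tested, in pathway order, with the SE as bars (edgeR, TMM scaling), filled where the adjusted p was under 0.05. Grey diamonds give the same fit with scaling by the Sertoli markers, under which Cyp11a1 goes below 0 and Lhcgr and Cyp17a1 stay highest, and the dashed line is the median of all genes tested, 0.01.

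Of the receptors, Lhcgr rose. Lhcgr (chromosome 17, 88741549 to 88791976, GRCm38, minus strand) encodes the receptor for luteinizing hormone and had 12.7, 11.9 and 12.4 CPM in the WT libraries against 18.9, 23.2 and 18.2 CPM in those of cKO. The lowest cKO library stood clear of the highest WT library, and the spread was wider in cKO. The rise was 1.63-fold (0.70 ± 0.11 on the log2 scale, fit ± SE, adjusted p = 0.00168). It passed the test under all 15 alternatives, with log2 fold changes from 0.50, under the Sertoli marker scaling, to 0.77, without cKO replicate 3.

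The bases upstream of a start site are shown for 3 members, as a reference for a gene that rose (Lhcgr), a highly abundant gene that did not pass the test (Hsd3b1) and its hardly detected relative (Hsd3b6). Each is the 250 bases before the RefSeq start, from RefSeq on GRCm38.p6, 5′ to 3′ on the gene's own strand, and capitals mark AGGTCA, the core of sites bound by the steroidogenic factor NR5A1 and by other nuclear receptors. The windows are chr17:88792015-88792264 for Lhcgr, chr3:98859795-98860044 for Hsd3b1 and chr3:98814444-98814693 for Hsd3b6, all on the minus strand.
Lhcgr: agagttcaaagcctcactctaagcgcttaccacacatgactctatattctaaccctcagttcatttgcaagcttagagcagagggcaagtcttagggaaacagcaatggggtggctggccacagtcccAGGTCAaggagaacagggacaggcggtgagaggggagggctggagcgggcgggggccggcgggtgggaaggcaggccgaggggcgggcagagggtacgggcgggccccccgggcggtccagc
Hsd3b1: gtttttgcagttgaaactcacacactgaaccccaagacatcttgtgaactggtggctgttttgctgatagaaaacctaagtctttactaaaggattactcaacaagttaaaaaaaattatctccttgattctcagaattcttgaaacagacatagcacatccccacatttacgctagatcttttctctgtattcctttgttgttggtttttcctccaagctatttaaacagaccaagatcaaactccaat
Hsd3b6: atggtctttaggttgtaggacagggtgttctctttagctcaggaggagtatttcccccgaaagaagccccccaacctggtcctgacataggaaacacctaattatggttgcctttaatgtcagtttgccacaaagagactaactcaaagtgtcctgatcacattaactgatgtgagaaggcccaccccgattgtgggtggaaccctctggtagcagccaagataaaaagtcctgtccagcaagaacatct
Both strands were searched for AGGTCA and for the longer CAAGGTCA, which contains it. AGGTCA was found once upstream of Lhcgr, 122 to 117 bases before the start, and once upstream of 1 of the 2 RefSeq starts of Cyp11a1, 28 to 23 bases before it. The windows of Hsd3b1, Hsd3b6, Hsd17b3 and the other start of Cyp11a1 held no match, and CAAGGTCA was in none of the 6 windows. Of all 32851 promoter windows of this length, 14.02% held AGGTCA and 1.333% held CAAGGTCA. The table matched 5 members, and Scarb1, Star, Cyp17a1, Cyp11b1 and Mc2r had no entry.

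The other receptor gene, Mc2r, did not pass the test. It encodes the receptor for adrenocorticotropic hormone, which fetal Leydig cells of the mouse carry as adrenal cells do, and lies on chromosome 18 (68406907 to 68429251, GRCm38, minus strand). Its counts were 36, 47 and 28 in WT and 50, 26 and 43 in cKO, which is 0.857, 1.08 and 0.781 CPM against 1.90, 0.760 and 1.23 CPM. The groups overlapped, and the cKO libraries differed beyond counting error, with exact 95% Poisson intervals of 1.41 to 2.51 CPM in replicate 1 and 0.497 to 1.11 CPM in replicate 2. The log2 fold change was 0.50 with a 95% interval from -0.29 to 1.28 (edgeR adjusted p = 0.461), and 0.13 without cKO replicate 1.

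Both genes of cholesterol entry rose, and Star did so more evenly. Star (chromosome 8, 25806555 to 25815982, GRCm38, plus strand), whose protein delivers cholesterol to CYP11A1, had 97.6, 93.4 and 93.8 CPM in the WT libraries and 113, 126 and 121 CPM in those of cKO. Every cKO library lay above every WT library. The rise was 1.26-fold (0.34 ± 0.06 on the log2 scale, fit ± SE, adjusted p = 0.00323), and its call was lost with the Sertoli marker scaling (log2 fold change 0.13, adjusted p = 0.139). Star lies outside, but close to, the stretch of chromosome 8 between 30 and 95 Mb. In that stretch 20.5% of 507 tested genes were called, beside 8.34% of all tested genes, and the cause was not tested. The bounds of the stretch were not part of the plan and may reflect earlier results of these data. Its share is therefore only a description.

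Scarb1 (chromosome 5, 125277087 to 125341094, GRCm38, minus strand), whose product SR-BI takes up cholesterol esters from lipoproteins, had 134, 141 and 146 CPM in WT. The cKO libraries were split, with 142 CPM in replicate 1, inside the WT range, and 205 and 210 CPM in replicates 2 and 3. The fitted rise of 1.33-fold was close to the threshold (0.41 ± 0.11 on the log2 scale, fit ± SE, adjusted p = 0.0488). Without cKO replicate 1 the log2 fold change was 0.56 (edgeR adjusted p = 6.34e-08). The call was lost without WT replicate 1, 2 or 3 (edgeR adjusted p = 0.199, 0.173 and 0.119), without cKO replicate 2 or 3 (0.213 and 0.140), in the robust fit (0.175) and with the Sertoli marker scaling (0.146).

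The first enzyme did not pass the test. Cyp11a1 (chromosome 9, 58006411 to 58027023, GRCm38, plus strand) encodes the side-chain cleavage enzyme that commits cholesterol to steroids. It had 48.8, 45.5 and 46.3 CPM in the WT libraries and 40.5, 52.6 and 57.3 CPM in those of cKO. Replicate 1 of cKO was below and replicates 2 and 3 were above all WT libraries. The log2 fold change was 0.10 with a 95% interval from -0.13 to 0.33 (edgeR adjusted p = 0.630). It was 0.23 without cKO replicate 1 and then passed the test (edgeR adjusted p = 0.0206), -0.01 without cKO replicate 3 and -0.11 with the Sertoli marker scaling.

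The 3-beta-hydroxysteroid dehydrogenase reads came almost wholly from Hsd3b1. Hsd3b1 (chromosome 3, 98852194 to 98859794, GRCm38, minus strand) had 191, 194 and 192 CPM in the WT libraries and 188, 186 and 185 CPM in those of cKO. The cKO libraries all lay just below the WT libraries, yet the log2 fold change was only -0.05 (95% interval from -0.15 to 0.05, edgeR adjusted p = 0.607). With the Sertoli marker scaling it was -0.25 and passed the test (edgeR adjusted p = 0.0133), while the median of all genes tested was -0.19.

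Hsd3b6 (chromosome 3, 98805504 to 98814443, GRCm38, minus strand), the adult Leydig form, had 5, 0 and 2 counts in WT and 5, 6 and 3 counts in cKO. The 0 counts of WT replicate 2 allow a level of up to 0.0691 CPM, by a floor of 3 counts. Of the counts of both genes in the 6 libraries together, 21 of 41120 fell on Hsd3b6, a share of 0.0511% (exact binomial 95% interval 0.0316% to 0.0781%, counting error only). The related genes Hsd3b2, Hsd3b3, Hsd3b4 and Hsd3b5 had 25, 58, 0 and 10 counts over the 6 libraries. The Hsd3b1 and Hsd3b6 transcripts align at 90.1% identity over 62.05% of the length of Hsd3b1, and reads that map to more than 1 place were not counted, so the split of a few reads between the copies is uncertain.

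Cyp17a1 had the lowest p of the members. It lies on chromosome 19 (46667165 to 46672974, GRCm38, minus strand), and its product turns pregnenolone and progesterone into androgen precursors. It had 85.6, 78.4 and 84.4 CPM in the WT libraries and 112, 127 and 139 CPM in those of cKO, with a clear gap between the groups. The rise was 1.52-fold (0.60 ± 0.08 on the log2 scale, fit ± SE, adjusted p = 0.000505), and it passed the test under all 15 alternatives, with log2 fold changes from 0.39 to 0.68.

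The gene of the last step to testosterone did not pass the test. Hsd17b3 (chromosome 13, 64058266 to 64089230, GRCm38, minus strand) had 264, 295 and 288 CPM in the WT libraries and 318, 349 and 312 CPM in those of cKO. The groups did not overlap, and the log2 fold change of 0.21 (SE 0.06, 1.16-fold, edgeR adjusted p = 0.0507) lay just outside the threshold. It passed in DESeq2 (adjusted p = 0.0196), limma-voom (0.0379), the robust fit (0.0372), with the stricter filter or none (0.0410 and 0.0346), with the replicate block (0.0246), and without cKO replicate 1 or 3 (0.00611 and 0.0430). With the Sertoli marker scaling its log2 fold change was 0.01 (edgeR adjusted p = 0.956). The part of the Sertoli cells in this value was not tested.

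Cyp11b1, which makes corticosterone in the adrenal and is also known in fetal Leydig cells, had a fitted value below 0 and did not pass the test. It lies on chromosome 15 (74834125 to 74841643, GRCm38, minus strand) and had 8.45, 10.4 and 11.5 CPM in the WT libraries and 8.53, 7.48 and 8.08 CPM in those of cKO. The groups overlapped by WT replicate 1. An opposite-strand model, Gml2, covers 285 of its 3165 exon bases, and its transcript aligns with that of Cyp11b2 at 87.12% identity over 48.09% of the length. The log2 fold change was -0.33 (95% interval from -0.62 to -0.05, edgeR adjusted p = 0.15), and -0.53 with the Sertoli marker scaling, where it passed (edgeR adjusted p = 0.0133).

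Set against Cyp11a1 of the same library, which takes out the scaling of the libraries, 4 of 8 ratios did not overlap between the groups. The share of all genes with such ratios was not computed, so this count has no background. By CPM, the cKO libraries lay above all WT libraries for 13.6% of all tested genes and below them for 14.6%. Cyp11a1 itself varied among the cKO libraries, from 40.5 to 57.3 CPM. The ratio of Cyp17a1 to Cyp11a1 per kilobase was 1.97 ± 0.0402 on the log2 scale in WT and 2.49 ± 0.114 in cKO, and that of Lhcgr was -1.01 ± 0.0253 and -0.40 ± 0.297 (means ± SD of 3 libraries). Star and Scarb1 also lay higher relative to Cyp11a1 in every cKO library, by 0.26 and 0.30 on the log2 scale. For these 4 ratios the exact two-sided permutation p was 0.1, the smallest that 3 against 3 samples allow, and 0.2 when adjusted over the 8 ratios, so the test could not pass the threshold. The ratios of Mc2r, Hsd3b1, Hsd17b3 and Cyp11b1 overlapped between the groups, with differences of 0.35, -0.13, 0.13 and -0.40 on the log2 scale (exact permutation p = 0.7, 0.5, 0.4 and 0.2). Replicate 3 of cKO, where Cyp11a1 was highest, had the smallest excess of Lhcgr and Star.

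**Figure D3:**
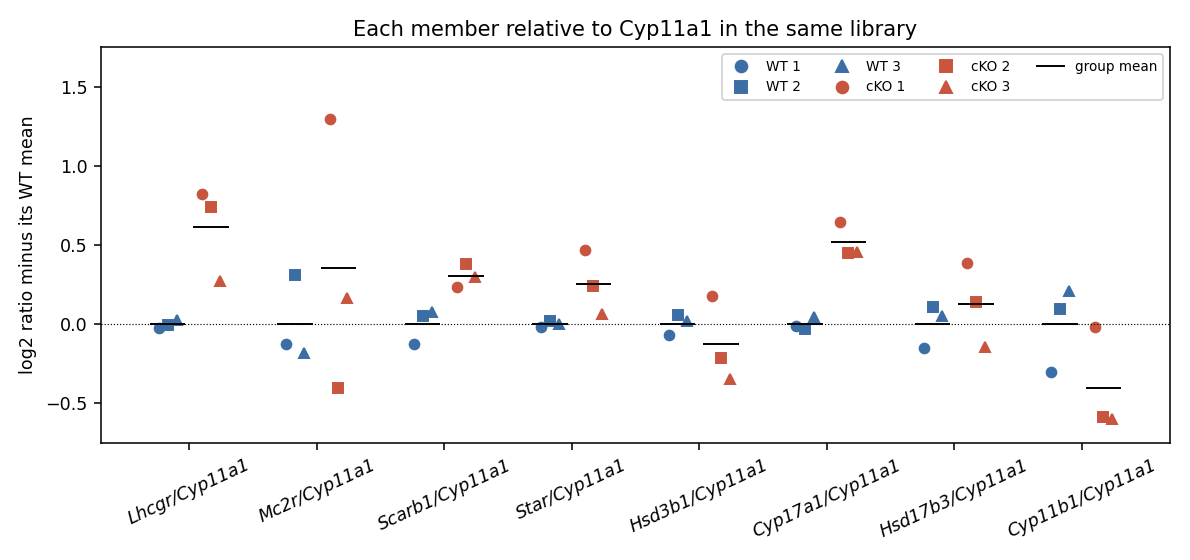
Log2 ratio of each member to Cyp11a1 in the same library, per kilobase, minus the WT mean of that ratio, for 3 WT (blue) and 3 cKO (red) libraries, with a bar at the group mean. The ratios of Lhcgr, Scarb1, Star and Cyp17a1 lie above those of WT in all 3 cKO libraries, and the other 4 overlap.

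Among genes that work with the members, calls went in both directions. Of 90 partner genes in 6 lists, 89 were in the table and 79 passed the low count filter, of which 12 rose, 4 fell and 63 did not pass (edgeR). That is a median log2 fold change of 0.08, beside 0.01 over all genes, of which 8.34% were called in either direction. The 16 calls became 9, 6 or 10 when WT replicate 1, WT replicate 2 or cKO replicate 2 was dropped, 27 when cKO replicate 1 was, and 26 with the Sertoli marker scaling.

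Of 22 genes of receptor signalling and receptor accessory proteins, 4 rose and 0 fell, with a median log2 fold change of 0.05. Of all tested genes 3.4% rose and 4.94% fell. In which cells of the testis these genes changed was not tested. Adcy7, an adenylyl cyclase gene, was at 125, 125 and 127 CPM in the WT libraries and 225, 229 and 240.1 CPM in those of cKO (0.88 ± 0.05 on the log2 scale, fit ± SE, adjusted p = 8.14e-07). It lies in the chromosome 8 stretch described above. Mrap2, whose product is an accessory protein of melanocortin receptors, was at 2.47, 3.09 and 3.29 CPM in the WT libraries and 6.17, 6.84 and 4.76 CPM in those of cKO (1.01 ± 0.18 on the log2 scale, fit ± SE, adjusted p = 0.00505). Mrap, the accessory protein gene needed for MC2R at the cell surface, had 0.943 ± 0.329 and 1.09 ± 0.203 CPM (means ± SD of 3 libraries) and did not pass. Gnas, which encodes the stimulatory G protein and whose locus is imprinted, rose by 0.31 on the log2 scale (edgeR adjusted p = 0.0126), and Adcy6 by 0.29 (0.0251). Gnas lost its call when WT replicate 1, 2 or 3 or cKO replicate 2 was left out (edgeR adjusted p = 0.0562, 0.0717, 0.0637 and 0.0521), and Adcy6 on dropping WT replicate 1, 2 or 3 or cKO replicate 3 (0.0971, 0.0885, 0.119 and 0.0800). Both also lost it with the Sertoli marker scaling (0.431 and 0.501).

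In the list of genes of electron supply to steroid enzymes, the cytochrome b5 genes moved in opposite directions. Of 6 tested, Cyb5a rose, with 38.7 ± 0.771 CPM in WT and 51.1 ± 1.54 in cKO (means ± SD of 3 libraries, 0.40 on the log2 scale, adjusted p = 0.00204), and Cyb5b fell, with 131 ± 4.12 CPM in WT and 104.5 ± 2.59 in cKO (means ± SD of 3 libraries, -0.32 on the log2 scale, adjusted p = 0.00268). Cytochrome b5 from Cyb5a is the known helper of the lyase reaction of CYP17A1, and Cyb5b encodes the form of the outer mitochondrial membrane. The list median was 0.10. Fdxr (0.33 on the log2 scale, edgeR adjusted p = 0.0530), H6pd (0.15, 0.216), Por (-0.15, 0.389) and Fdx1 (0.05, 0.826) did not pass. The Cyb5a call was lost with the Sertoli marker scaling (log2 fold change 0.20, edgeR adjusted p = 0.0784).

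Among other steroid-converting enzymes 2 of 11 tested rose, 1 fell, and the list median was -0.09. Cyp21a1, the 21-hydroxylase gene of the corticosteroid branch, was at 13.3, 15.4 and 15.6 CPM in the WT libraries and 5.79, 9.47 and 9.20 CPM in those of cKO, lower in every cKO library (-0.84 ± 0.16 on the log2 scale, fit ± SE, adjusted p = 0.00699). Leaving out WT replicate 2 ended its call (adjusted p = 0.0508). Its transcript aligns with the pseudogene Cyp21a2-ps at 91.9% identity over 69.8% of its length, so its counts are uncertain. Hsd17b1, the estradiol-forming dehydrogenase gene that immature Sertoli cells are known to express, rose by 0.32 on the log2 scale (edgeR adjusted p = 0.0272), and Hsd17b11 by 0.24 (0.0488). Hsd17b1 lost its call without any single library but cKO replicate 1 (edgeR adjusted p from 0.0532 to 0.145), and with the Sertoli marker scaling (0.248). Hsd17b11 lost it when WT replicate 1 or 2 or cKO replicate 2 or 3 was left out (0.195, 0.218, 0.178 and 0.0837), with library size alone (0.0576), with no filter (0.0612) and with the Sertoli marker scaling (0.730).

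Of 16 genes of cholesterol supply and mitochondrial import 1 rose and 0 fell, with a median of 0.06. The 1 was Dbi, an acyl-CoA binding protein gene, with a log2 fold change of 0.23 (edgeR adjusted p = 0.0165) that did not pass when WT replicate 1, 2 or 3 or cKO replicate 2 was left out (0.0773, 0.109, 0.0636 and 0.101), nor with the Sertoli marker scaling (0.804). Of the rest, the channel gene Vdac1 had the lowest p (log2 fold change 0.17, edgeR adjusted p = 0.0717, and -0.03 with the Sertoli marker scaling), and the cholesterol exporter gene Abca1, the most abundant by CPM, was at -0.02 (0.864).

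Of 15 transcription factor genes of Leydig cells and their precursors 2 rose and 1 fell, with a median of 0.18. The part of other cell types, Sertoli cells included, in these whole-testis values was not tested. Nr5a1, the master regulator of steroidogenic genes, had 202 ± 4.69 and 234 ± 30.5 CPM (means ± SD of 3 libraries, 0.22 on the log2 scale, adjusted p = 0.118). Gata4, a regulator of gonadal genes and the most abundant of the list, was at 0.20 (adjusted p = 0.173) and at -0.01 with the Sertoli marker scaling. The orphan receptor gene Nr4a3 rose by 1.05 on the log2 scale (edgeR adjusted p = 0.0154), with 1.97 ± 0.464 CPM in WT and 4.08 ± 0.882 in cKO (means ± SD of 3 libraries). Nr5a2, a close relative of Nr5a1, fell by 0.51 on the log2 scale (edgeR adjusted p = 0.0235). Nr4a3 did not pass when WT replicate 1 or 2 or cKO replicate 3 was left out (adjusted p = 0.0720, 0.0618 and 0.0547), nor Nr5a2 on dropping WT replicate 2 or cKO replicate 2 or 3 (0.131, 0.0614 and 0.0528).

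Other genes known from Leydig cells went both ways, with 2 of 9 rising and 1 falling and a median of 0.07. Insl3, the peptide hormone that only Leydig cells of the testis are known to make at this age, had 4.83, 4.63 and 4.77 CPM in the WT libraries and 3.96, 4.97 and 5.90 CPM in those of cKO and did not pass (log2 fold change 0.07, edgeR adjusted p = 0.857). Its lowest and highest cKO libraries were the same as for Cyp11a1, and it lies in the chromosome 8 stretch described above. Ptgds, a prostaglandin synthase gene, was at 22.8, 26.04 and 24.2 CPM in the WT libraries and 32.9, 41.3 and 46.1 CPM in those of cKO (0.72 ± 0.11 on the log2 scale, fit ± SE, adjusted p = 0.00181). Ren1, the renin gene, which fetal Leydig cells are known to express, was at 40.3, 40.1 and 42.3 CPM in the WT libraries and 22.9, 26.3 and 26.3 CPM in those of cKO (-0.70 ± 0.08 on the log2 scale, fit ± SE, adjusted p = 0.0002). The most abundant gene of this list, Dlk1, was at 0.12 on the log2 scale (adjusted p = 0.0925) and at -0.08 with the Sertoli marker scaling. The prolactin receptor gene Prlr rose by 0.31 on the log2 scale (edgeR adjusted p = 0.00884), a call lost on dropping WT replicate 2 or cKO replicate 2 (0.0773 and 0.0621) and with the Sertoli marker scaling (0.306).

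**Figure D4:**
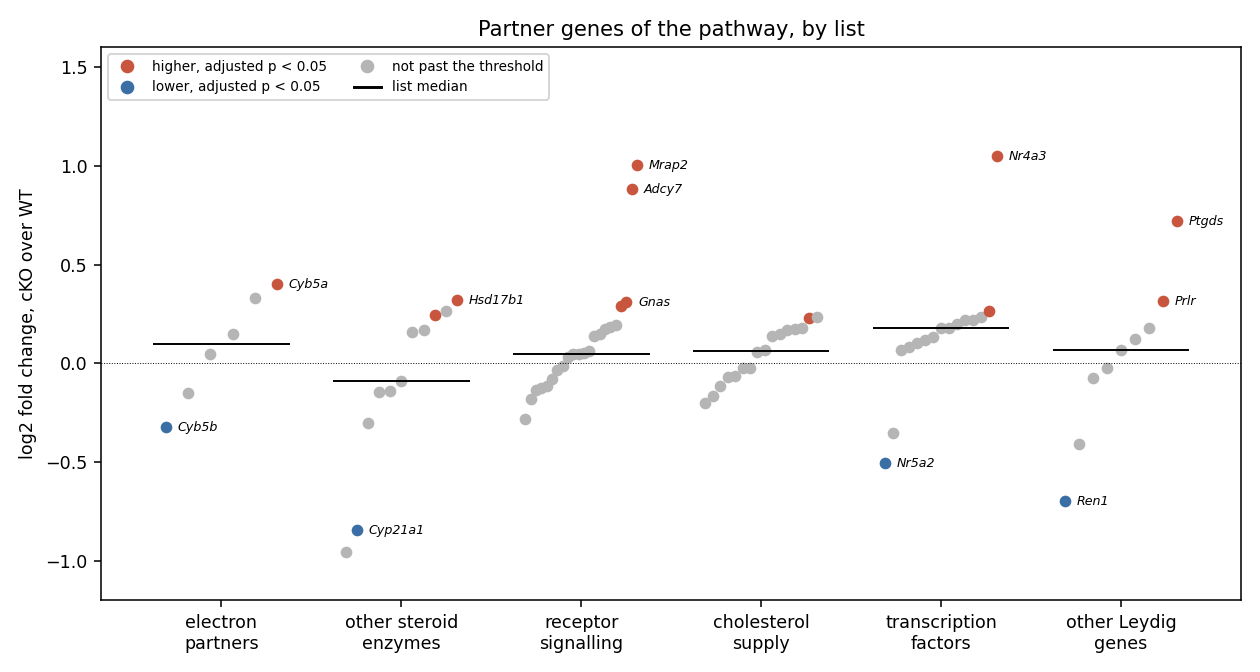
Log2 fold change of cKO over WT for the 79 tested partner genes in 6 lists, each point a gene, red or blue where the adjusted p was under 0.05, with a bar at the list median and names at the called genes of larger change. Mrap2, Nr4a3, Adcy7 and Ptgds stand highest among the called genes, Cyp21a1 and Ren1 lowest, and most genes lie near 0.

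Markers of some other cell types differed between the groups, and their part in the members' values was not tested. The Sertoli marker scaling changes the scale of all genes and is not such a test. For comparison, 3.4% of all tested genes rose and 4.94% fell. Of 10 germ cell markers 9 fell and 0 rose (edgeR), and their summed level was 1190 to 1253 CPM in WT and 642 to 687 CPM in cKO. The 5 of them followed through the alternatives (Tex15, Ddx4, Stk31, Nxf2 and Dazl) kept their calls in all 15. Tex15 lies in the chromosome 8 stretch described above. Of 12 Sertoli markers 5 rose and 0 fell, with sums of 6343 to 6540 and 7252 to 7871 CPM. Of the 4 with the lowest p, Rhox8 lost its call on dropping WT replicate 2, Cst12 on dropping WT replicate 1 or cKO replicate 2, and Clu on dropping WT replicate 1 or 3 or cKO replicate 2. All 4, Ctsl included, lost it with the Sertoli marker scaling, but that scaling is set by the 12 markers themselves, so this loss is no check of them. Of 10 macrophage markers 4 rose and 0 fell, with sums of 97.6 to 107 and 130 to 132 CPM. The 4 were Mrc1, Lyz2, Ptprc and Csf1r, called in 10, 11, 10 and 9 of 15 alternatives, and Csf1r was lost with library size alone. All 4 calls were lost with the Sertoli marker scaling and on dropping WT replicate 2, and all but that of Lyz2 on dropping WT replicate 1. Those of Mrc1, Lyz2 and Ptprc were lost on dropping WT replicate 3, and those of Mrc1, Lyz2 and Csf1r on dropping cKO replicate 2. Those of Ptprc and Csf1r were lost on dropping cKO replicate 3. The Lyz2 transcript aligns with that of Lyz1 at 95.8% identity over 96.0% of its length, so its counts are uncertain. Of 7 endothelial markers 1 rose, Pecam1, with sums of 589 to 607 and 624 to 686 CPM, and its call was lost on dropping WT replicate 2 and with the Sertoli marker scaling. Of 6 stroma markers 2 fell, Col1a2 and Col3a1, with sums of 10836 to 11732 and 8163 to 11173 CPM. Both lost their calls in the robust fit and on dropping any library but cKO replicate 1, and Col3a1 also with the stricter filter. Col1a1, not called in the main fit, passed downward in 5 of 15 alternatives, 1 of them without cKO replicate 1. Of 6 peritubular myoid markers 0 passed in edgeR, with sums of 1519 to 1582 and 1407 to 1892 CPM. An unadjusted p under 0.05 was found for 2 of the 6, beside 4699 of the 20153 genes tested. Tagln passed downward without cKO replicate 1 (log2 fold change -0.60), with no filter and with the Sertoli marker scaling. Acta2 passed downward only without cKO replicate 1 (-0.16), and Des passed in 0 of 15 alternatives. None of these markers was at 0 in all libraries. The 8 adrenal gland markers summed to 37.6 to 38.1 CPM in WT and 30.5 to 36.8 CPM in cKO, and 5 of them passed the low count filter. Cyp21a1 fell, with means of 14.7 and 8.15 CPM in WT and cKO, and Akr1b7 (14.2 and 16.3), Pnmt (4.13 and 5.09), Chga (3.42 and 2.89) and Chgb (1.09 and 1.37) did not pass the test. Cyp11b2, Dbh and Th were at 0.0558 and 0.0699, 0.134 and 0.0800, and 0.110 and 0.0585 CPM.

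Genes outside the pathway whose pattern over the 6 libraries was most like the mean of the 9 tested members were Fam126a, Lrrc17, Pgpep1, Hspb1 and Helz. Their Pearson correlations with the mean of the members' standardised log2 CPM were 0.997, 0.996, 0.996, 0.995 and 0.995 over 6 libraries, the highest of 11253 genes considered. All 5 lay higher in every cKO library, by log2 fold changes of 0.13, 0.20, 0.38, 0.58 and 0.18, so these correlations include the difference between the groups. Of the members themselves, Cyp17a1 (0.88), Star (0.86), Scarb1 (0.83), Hsd17b3 (0.82) and Lhcgr (0.80) correlated with the mean of the other members, while Cyp11a1 was at 0.25, Mc2r at -0.02, Cyp11b1 at -0.73 and Hsd3b1 at -0.90 over the same 6 libraries. These are descriptions without a test, since the libraries of a group share its difference.

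The share of tested genes called within 5 Mb of a member, beside 8.34% of all tested genes, ran from 2.08% around Mc2r to 16.7% of 126 genes around Cyp11a1. It was 10.5% of 38 genes around Lhcgr, 7.34% around Scarb1 and around Cyp17a1, 6.67% around Star, 8.42% around Hsd3b1, 8.47% around Hsd3b6, 5.95% around Cyp11b1 and 3.25% around Hsd17b3.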

How the data were processed

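RNA of whole testes was sequenced in 3 WT and 3 cKO samples. Per the labels' protocols, ribosomal RNA was depleted and strand was kept, while the molecule field names polyA RNA. Whole-number counts per gene were deposited, which per the file headers the authors made with featureCounts 1.6.4 (strand setting 1) on GENCODE M18. Reads over several genes or places were not counted. The submitters' processing notes name cutadapt, HISAT2 and GRCm38.p5. Symbols came from GENCODE M21 and matched 54079 of 54232 genes, and 1 listed gene, Sts, had no match.

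Low genes were dropped by filterByExpr (count 10, total 15), and the rest were scaled by TMM and tested with edgeR 4.0.16 in R 4.3.3 (quasi-likelihood, group only, Benjamini-Hochberg over 20153 genes, threshold 0.05). Log2 fold changes are cKO over WT, SE is the log2 fold change over the root of F, and 95% intervals use the t distribution. Totals of 26126694 to 43265614 counts set the precision. RPKM is TMM-scaled CPM per kilobase of the exon length in the table. Ratios to Cyp11a1 used exact two-sided permutation tests. Transcripts were aligned with minimap2 2.31-r1302, in place of a planned comparison of the HSD3B proteins. Cyp11a1 shares 145 of 4804 exon bases with the same-strand model Gm17322, and reads over both were not counted.

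Alternatives were RLE, library size or Sertoli marker scaling, DESeq2 1.42.0, limma-voom (limma 3.58.1), a minimum of 1 CPM in 3 libraries or no minimum, the robust fit, the replicate block, each library left out and, added after seeing the data, the longest transcript as length. The fit was tested on simulated data. The members and lists were chosen with earlier results of these data known. Named are the members, Dis3l2, in each list up to 4 called genes of lowest p (or 2 genes of lowest p where fewer than 2 were called) and the gene of highest mean CPM, and the 5 genes of most similar pattern with a mean of at least 5 CPM. Markers of other cell types are mostly given as sums. Outside this rule are Mrap, Nr5a1, Insl3, Fdxr, H6pd, Por, Fdx1, Cyp11b2, Th, Dbh, Pnmt, Chga, Chgb and the other Hsd3b genes. They were chosen after their values were seen. A result that the rule names is not reported here.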

Additional observations from a re-analysis of the deposited data

How the results depend on the processing

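Scaling by the Sertoli marker genes left 2 members higher and made 2 lower, gave a median of 0.13 for the 9 members, 5196 calls over all genes (4.23% of them upward, beside 40.7% before) and 26 partner calls. Under it the log2 fold changes of Cyp11a1 (-0.11), Vdac1 (-0.0277), Gata4 (-0.0106), Dlk1 (-0.0795), the endothelial marker Cdh5 (-0.0676) and the adrenal marker Akr1b7 (-0.0064) changed sign. With single libraries left out, the members' rises ran from 3 to 6, their falls stayed at 0, their median ran from 0.23 (without cKO replicate 1) to 0.36, all calls from 623 (without WT replicate 2) to 3375 (without cKO replicate 1) and partner calls from 6 to 27. Without WT replicate 1, WT replicate 3 or cKO replicate 2 there were 759, 837 or 801 calls. The log2 fold change ran from -0.0104 to 0.23 for Cyp11a1, -0.0578 to 0.0126 for Dis3l2, -0.0618 to 0.0211 for Abca1 and -0.158 to 0.0157 for the myoid marker Acta2. The ratio to Cyp11a1 ran from -0.12 to 0.73 for Mc2r and from -0.0022 to 0.26 for Hsd17b3, in each case lowest without cKO replicate 1. The causes were not tested. The other settings kept the count of members higher at 4 or 5. The replicate block gave 5, with Hsd17b3 added, 21 partner calls and 1798 calls in all. Same-numbered samples had correlations of their deviations of 0.0748, 0.0292 and 0.111, so the numbers were not taken to pair them, although each sample correlated best with its own number. The ratio of Hsd3b6 to Hsd3b1 was not computed, since 1 library had 0 counts of Hsd3b6. Per kilobase of the longest transcript, added after seeing the data, Scarb1, Cyp17a1 and Star changed ranks in both groups, and Lhcgr and Cyp11b1 in WT. Depth limits Hsd3b6, with at most 6 counts in a library.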
